A study of Mus musculus with 58 samples.

Results

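*Txnip*, *Arrdc4*, the carbohydrate response factors *Mlxipl*, *Mlxip* and *Mlx*, and the Krüppel-like factors *Klf10* and *Klf11* were followed over the day in single mouse retinas. They are 7 of the 52459 gene symbols counted, chosen by name, and all 7 were among the 19120 expressed genes, those with a median above 4 normalized counts over all libraries. RNA depleted of ribosomal RNA was sequenced from 58 retinas, 30 of control mice and 28 of diabetic mice, with 4 to 6 libraries in each of the 12 groups. Sampling around the clock in both genotypes allows a transcript's level and its timing to be compared.

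Diabetic mice were heterozygous Ins2Akita males on C57BL/6, in which a mutation of an insulin gene makes the hormone misfold and beta cells fail, so that the animals are hyperglycemic. Controls were their wild-type male littermates. Both genotypes lived under 12 h of light and 12 h of darkness and were killed at 4 months of age at zeitgeber time (ZT) 1, 5, 9, 13, 17 or 21, where ZT0 is lights on. Animals were perfused with saline, and retinas taken at night were dissected under dim red light. The mutation is a point change that a count table cannot show, and the model is a genetic lack of insulin in 1 sex, at 1 age. All 12 groups share the strain, the sex, the age and the light cycle. The libraries of a group are described as biological replicates, and p-values measure the spread between these retinas.

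TXNIP is an α-arrestin that binds and inhibits thioredoxin and drives glucose transporters off the cell surface, so it restrains glucose uptake, and its transcript is known to climb with glucose in many tissues. ARRDC4 is its closest relative and also restrains glucose uptake. ChREBP, made from *Mlxipl*, and MondoA, made from *Mlxip*, pair with MLX, respond to glucose 6-phosphate, and bind carbohydrate response elements in promoters such as that of *Txnip*. KLF10 and KLF11 are repressors of the same family, and *Klf10* is known as a target of ChREBP.

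A carbohydrate response element is a pair of boxes close to CACGTG with 5 bases between them. The 250 bases before the start of *Txnip* and of *Arrdc4* are shown for this reason, 5′ to 3′ on the gene's strand, from RefSeq on GRCm38.p6. They span chr3:96557707-96557956 on the plus strand and chr7:68749239-68749488 on the minus strand, and capitals mark every CACGNG on either strand, read as CNCGTG on the other.
Txnip: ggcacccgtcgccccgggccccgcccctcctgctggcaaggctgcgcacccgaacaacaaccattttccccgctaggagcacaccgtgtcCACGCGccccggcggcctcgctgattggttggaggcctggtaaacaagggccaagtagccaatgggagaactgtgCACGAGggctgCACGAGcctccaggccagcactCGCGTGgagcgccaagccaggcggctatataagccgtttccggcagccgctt
Arrdc4: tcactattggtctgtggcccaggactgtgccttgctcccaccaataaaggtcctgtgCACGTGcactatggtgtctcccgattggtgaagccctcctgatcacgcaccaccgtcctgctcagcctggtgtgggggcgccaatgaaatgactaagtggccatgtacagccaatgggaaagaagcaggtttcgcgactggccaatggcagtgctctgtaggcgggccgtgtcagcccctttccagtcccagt
The *Txnip* window held 4 boxes, which began 160, 85, 74 and 52 bases before the start, and those at 85 and 74 form a pair with 5 bases between them. Such a pair was found in 24 of the 32851 promoter windows of the same length, or 0.0731%, whereas a single box was found in 23.5%. The *Arrdc4* window held 1 box, a CACGTG that began 193 bases before the start, and 6.02% of all windows held CACGTG. The same palindrome was also found 40 bases before *Mlx*, and was 1 of the 2 boxes of *Klf11*. Of the 2 start sites listed for *Mlxipl*, 1 had 2 boxes, the palindrome among them, and the other none, and *Mlxip* had none. These are matches of letters in a window, and binding was not measured. *Klf10* had no entry in the set of promoter windows used, so its promoter was not searched.

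In control retinas the order of levels per kilobase of exon was *Mlx* with 133.8 ± 11.9 normalized counts per kb, *Mlxip* with 40.9 ± 4.66, *Txnip* with 34.1 ± 6.69, *Klf10* with 29.0 ± 3.95, *Klf11* with 24.5 ± 4.47, *Arrdc4* with 22.3 ± 3.67 and *Mlxipl* with 1.21 ± 0.535 (SD, n = 30 for each). *Mlx* stood above the others and *Mlxipl* below them by far more than their spread. From *Mlxip* to *Arrdc4* each gene differed from its neighbour by less than the sum of both SDs, so that the libraries of neighbours overlapped. The order was the same in diabetic retinas. *Mlxipl* rested on 2 to 20 reads per library, against 51 reads or more for each of the other 6, so its values carry a large counting error. Reads of overlapping genes may be shared or enter these counts, for those on the other strand because it is not stated whether counting used the strand. *Mlx* (chromosome 11, 101087277 to 101092207) overlaps *Psmc3ip* on the other strand, which had a mean of 56.9 normalized counts, *Mlxip* (chromosome 5, 123394798 to 123457932) overlaps 3 gene models on its own strand with means of 41.0, 19.5 and 6.38, and *Txnip* (chromosome 3, 96557957 to 96561883) overlaps an antisense gene with a mean of 1.3.

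Libraries held 7773117 to 22147398 counted reads. Markers of rods, cones, bipolar, amacrine and ganglion cells and Müller glia were present, and red blood cell markers summed to medians of 5.56 and 6.25 normalized counts in control and diabetic libraries and to at most 190. Lens markers summed to 28840, 33200 and 43470 normalized counts in 3 control libraries (ZT17 replicate 5, ZT21 replicate 2 and ZT1 replicate 6), and to at most 977.2 in every other library. The main values are therefore also given without these 3. Markers of retinal pigment epithelium summed to 467.8 to 4522 in control libraries, with a median of 2323. In diabetic libraries they summed to 379.7 to 4930, with a median of 1568. None of the 7 passed between genotypes, and the sums moved with the time of day. Of these 7 markers 5 changed over the day in each genotype, where 9.06% of all genes did in control and 10.2% in diabetic retinas. The medians of their sum were lowest at ZT1 in control (998.5) and at ZT5 in diabetic retinas (513.2), and highest at ZT21 in both (3222 and 3288). At ZT5 the sum was 575.9 to 2266 in control and 379.7 to 548.9 in diabetic libraries. Of 7 cone markers 3 were lower in diabetic retinas (*Gnat2*, *Pde6c* and *Pde6h*, median of the list -0.12 on the log2 scale), as was 1 of 8 rod markers and 1 of 6 microglial markers, and 1 of 7 amacrine markers, *Chat*, was higher. Of all genes 1.41% were lower and 1.58% higher. DESeq2 also called the cone marker *Opn1mw*, as lower. None of the 8 rod, 7 cone, 6 bipolar and 6 microglial markers had a log2 difference above 0 (medians -0.08, -0.12, -0.10 and -0.09). Among ganglion cell markers 6 of 7 did (median 0.06). Their part in the results below was not tested, and in whole retinas fewer cells of a type and less RNA per cell cannot be told apart.

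*Txnip* was higher in diabetic retinas. It had 55.4 to 149.3 normalized counts in the 30 control libraries, with a median of 109.6, and 77.2 to 206.6 in the 28 diabetic libraries, with a median of 129.4. The genotypes overlapped, with 22 of 28 diabetic libraries above the control median, 7 of them above every control library. Over all time points the fold was 1.23 (log2 difference 0.30 ± 0.08 SE, adjusted p = 0.0231, edgeR's quasi-likelihood test with Benjamini-Hochberg adjustment over 19120 genes). Without the 3 control libraries with lens transcripts the log2 difference was 0.31 (adjusted p = 0.0314), and with any 1 library left out it was 0.27 to 0.32 (adjusted p = 0.0114 to 0.0387).

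*Klf10* was also higher in diabetic retinas, by a smaller fold. Its values ran from 88.1 to 157.9 normalized counts in control libraries, with a median of 119.5, and from 110.0 to 187.3 in diabetic libraries, with a median of 132.7. The groups overlapped broadly, although 23 of 28 diabetic libraries lay above the control median and the diabetic mean was the higher one at each of the 6 time points. The fold was 1.145 (log2 difference 0.20 ± 0.05 SE, adjusted p = 0.02975, edgeR). This call was lost without diabetic ZT17 replicate 5 (adjusted p = 0.0535) and when genes with low counts were kept in the table (adjusted p = 0.0557).

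*Txnip* and *Klf10* were thus 2 of the 7 members past the threshold, both higher. Over all genes 2.99% passed in either direction and 1.58% passed as higher in diabetic retinas.

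*Arrdc4*, the closest relative of *Txnip*, had a mean of 90.05 normalized counts in both genotypes (SD 14.8 and 11.9, n = 30 and 28). No diabetic library lay above every control library, and 14 of 28 lay above the control median. The log2 difference was -0.01 ± 0.06 SE (adjusted p = 0.980, edgeR), and its sign changed in 11 of the 58 fits that left out 1 library. The *Arrdc4* difference was thus too small for a direction to be given.

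The glucose-responsive factors themselves did not pass. *Mlxip* had a mean of 340.1 ± 38.8 in control and 367.1 ± 39.7 in diabetic retinas (log2 difference 0.11 ± 0.04 SE, adjusted p = 0.153), and its diabetic mean was the higher one at all 6 time points. *Mlx*, the shared partner, had 267.5 ± 23.9 and 262.5 ± 22.8 (adjusted p = 0.792). *Mlxipl* had 6.69 ± 2.96 and 7.75 ± 3.51 (log2 difference 0.25 ± 0.16 SE, adjusted p = 0.509). For *Klf11*, the relative of *Klf10*, the means were 106.3 ± 19.4 and 117.0 ± 18.2 (log2 difference 0.14 ± 0.06 SE, adjusted p = 0.262; SD throughout, n = 30 and 28, edgeR). For *Mlxip* and *Klf11* the unadjusted p-values in edgeR were 0.0104 and 0.0311, where 15.5% of all genes were under 0.05. A difference of this size was thus not settled by 58 libraries.

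**Figure D1:**
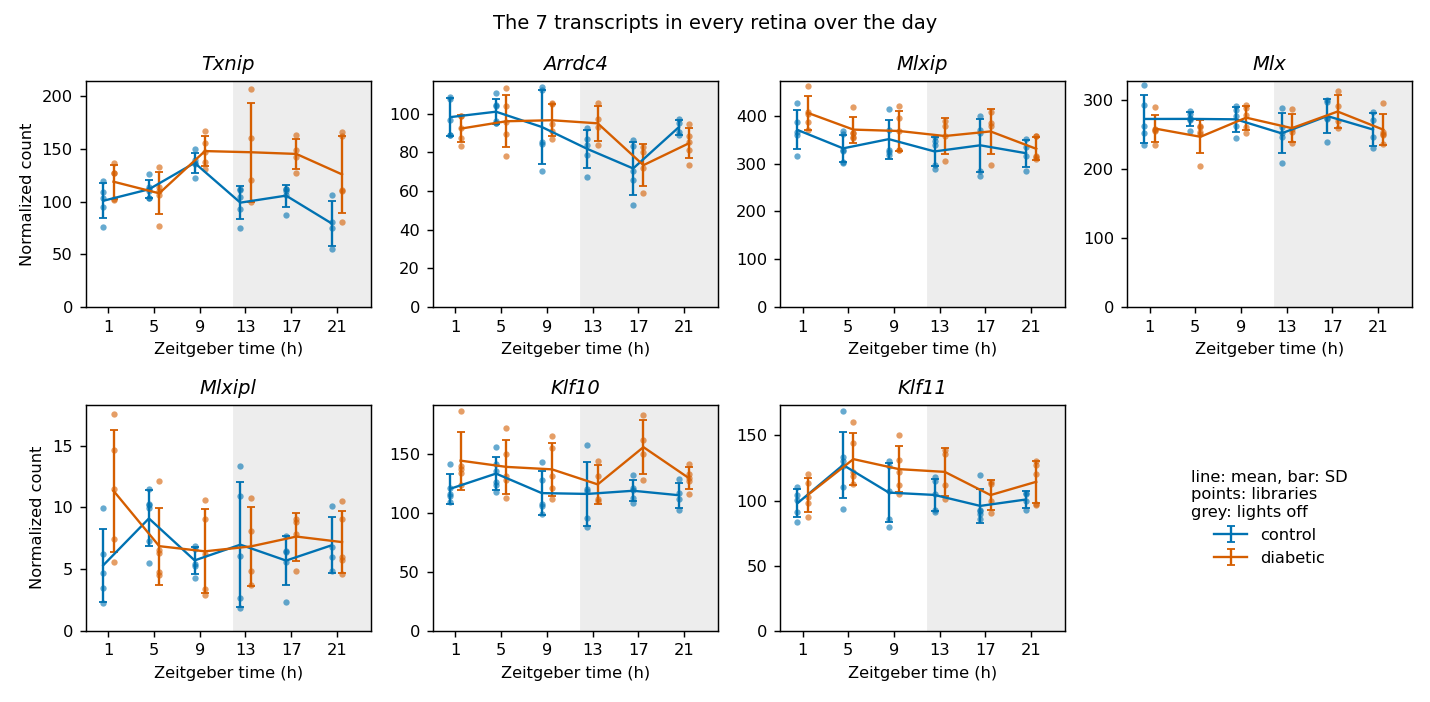
Normalized counts (y) of the 7 members by zeitgeber time in h (x), with a point for each retina, lines through the means, bars of 1 SD and grey for darkness, control in blue and diabetic in orange. Diabetic *Txnip* has means of 147.8, 146.7 and 145.1 at ZT9, ZT13 and ZT17, while control *Txnip* has its lowest mean, 79.2, at ZT21. The diabetic mean at ZT13 is of 4 libraries spread from 99.8 to 206.6 (SD 47.1).

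By time of day, *Txnip* overlapped between the genotypes throughout the light phase. At ZT1 the control libraries had 75.7, 109.4, 94.7, 103.7 and 119.8 normalized counts, and the diabetic libraries 136.5, 101.1, 126.6, 102.6 and 127.3. At ZT5 the 6 controls had 103.6 at the lowest, 111.0 at the median and 126.2 at the highest, and the diabetic libraries 132.6, 106.0, 109.8, 113.5 and 77.2. At ZT9 the controls had 135.2, 122.2, 139.6, 136.6 and 149.3, and the diabetic libraries 167.2, 131.2, 147.0, 155.7 and 137.9. At these 3 daytime points the groups overlapped, and the log2 differences were 0.24 ± 0.16, -0.06 ± 0.16 and 0.11 ± 0.16 (SE).

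At the dark time points fewer libraries of the genotypes overlapped. At ZT13 the controls had 104.4, 93.3, 110.9, 111.5 and 74.6 and the diabetic libraries 159.9, 99.8, 120.4 and 206.6, so 3 of the 4 diabetic libraries were above every control. At ZT17 the controls had 110.3, 112.1, 87.6, 106.3 and 111.9 and the diabetic libraries 162.7, 141.8, 148.4 and 127.5. At ZT21 the controls had 80.6, 106.0, 55.4 and 74.8 and the diabetic libraries 161.8, 80.7, 109.9, 165.6 and 110.7, of which 1 lay within the control range. ZT17 was the time at which the genotypes did not overlap, which held for *Txnip* and for no other member there or at any other time. At ZT17 all diabetic libraries were above all controls for 0.921% of genes.

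The log2 differences of *Txnip* in the 3 dark groups were 0.57 ± 0.17, 0.46 ± 0.16 and 0.69 ± 0.17 (SE), or folds of 1.49, 1.37 and 1.61, with unadjusted p-values of 0.00154, 0.00705 and 0.000221 in edgeR's fit of 12 groups. After adjustment over 19120 genes none of them passed (adjusted p = 0.795, 0.291 and 0.244). The control libraries with lens transcripts had 111.9 at ZT17 and 106.0 at ZT21, the latter the highest control value there, that at ZT1 had 119.8, also the highest, and without them the log2 differences were 0.48 at ZT17 and 0.86 at ZT21. Without diabetic ZT13 replicate 5, the 206.6, the difference at ZT13 was 0.37 with an unadjusted p of 0.0433.

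No other member passed after adjustment at any single time either, by edgeR or by DESeq2, which gave no adjusted p for *Mlxipl* at ZT1 and ZT17. At an unadjusted p under 0.05, edgeR gave 2 of the 7 members at ZT1, where 5.5% of all genes were under it, and 2 at ZT17 (8.82%). It gave 1 each at ZT13 (4.46%) and ZT21 (4.67%), and none at ZT5 (6.15%) or ZT9 (4.49%). Those at ZT1 were *Mlxipl* and *Klf10*, those at ZT17 *Txnip* and *Klf10*, and those at ZT13 and ZT21 *Txnip*.

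For *Klf10* at ZT17 the controls had 132.4, 120.1, 121.2, 109.0 and 112.8 and the diabetic libraries 150.6, 162.2, 128.5 and 183.4. Of these, 1 diabetic library lay within the control range (log2 difference 0.39 ± 0.13 SE, unadjusted p = 0.00435, adjusted p = 0.239). At ZT1 the log2 difference of *Klf10* was 0.27 ± 0.13 SE (unadjusted p = 0.0395, adjusted p = 0.881) and 1 diabetic library, at 187.3, lay apart from the others, which had 123.9 to 140.4. Without that library the unadjusted p was 0.258. *Mlxipl* at ZT1 had 2.23 to 9.92 normalized counts in 5 control and 5.54 to 17.5 in 5 diabetic libraries, so the groups overlapped (log2 difference 1.06 ± 0.37 SE, unadjusted p = 0.00564, adjusted p = 0.637).

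**Figure D2:**
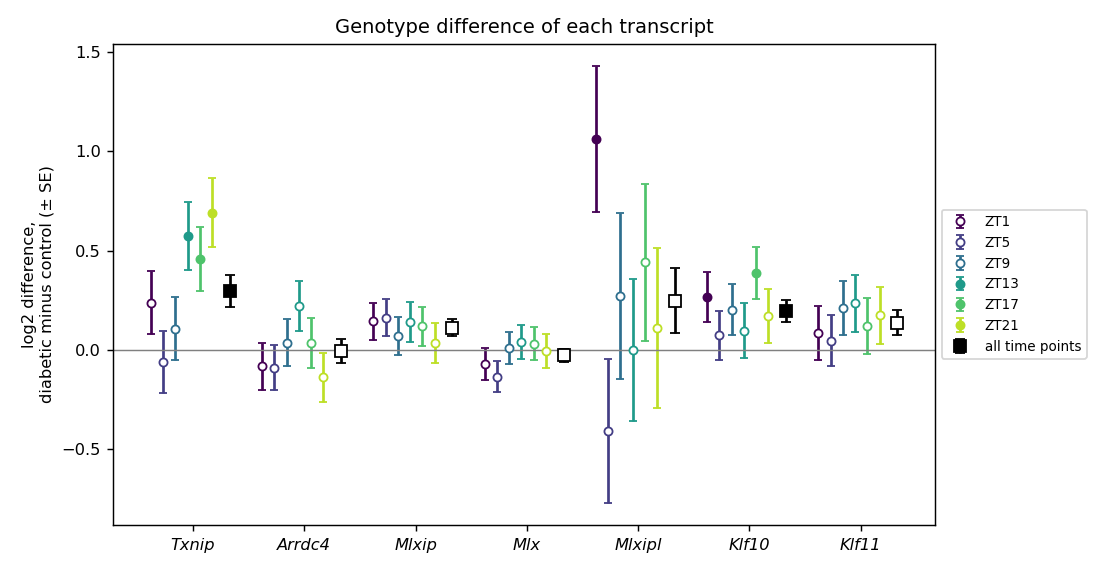
Log2 difference, diabetic minus control, with its SE (y) for each member (x), at the 6 time points (circles, filled where the unadjusted p is under 0.05) and over all time points (squares, filled where the adjusted p is under 0.05). The *Txnip* points of ZT13, ZT17 and ZT21 lie at 0.57, 0.46 and 0.69, above its daytime points, and the *Arrdc4* points lie on both sides of 0.

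*Txnip* and *Arrdc4* are both known targets of MondoA, and their counts were also set against each other within each library, a ratio that needs no scaling between libraries. The ratio of *Txnip* reads to *Arrdc4* reads ran from 0.611 to 2.02 in the 30 control libraries, with a median of 1.19, and from 0.741 to 2.41 in the 28 diabetic libraries, with a median of 1.47. The mean log2 difference within time points was 0.30, a fold of 1.23. The ratio was formed after both genes' values were seen, so it describes the same difference again and carries no test. The genotypes overlapped at each time, at ZT17 (1.28 to 2.02 against 1.78 to 2.41) as at ZT21 (0.611 to 1.09 against 0.853 to 1.99). With any 1 library left out the log2 difference was 0.266 to 0.330, and without the 3 libraries with lens transcripts it was 0.306.

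**Figure D3:**
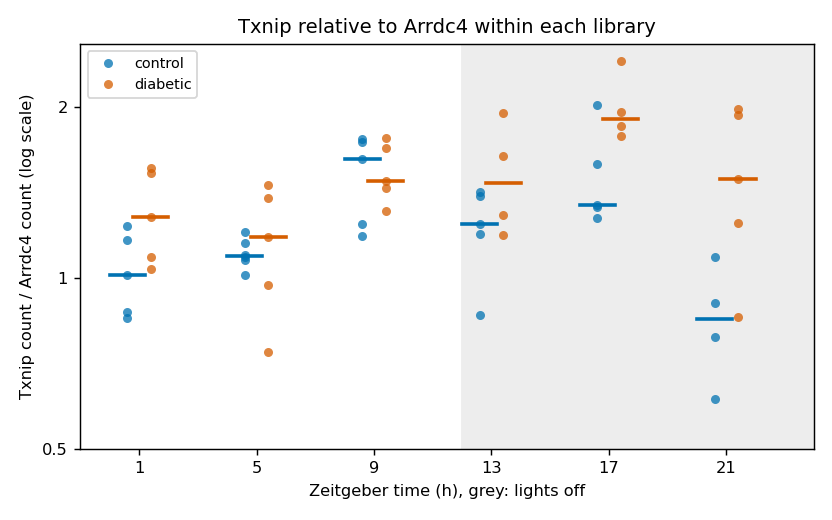
Ratio of *Txnip* to *Arrdc4* reads on a log scale (y) by zeitgeber time in h (x), a point for each retina and a bar at the group median, grey for darkness, control in blue and diabetic in orange. Over the 6 time points the control medians run from 0.846 at ZT21 to 1.62 at ZT9, and at ZT21 the diabetic median is 1.49.

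In control retinas *Txnip* and *Arrdc4* changed over the day. *Txnip* had its highest mean, 136.6 ± 9.75 (SD, n = 5), at ZT9, late in the light phase, and its lowest, 79.2 ± 20.9 (SD, n = 4), at ZT21. *Arrdc4* had its highest mean, 101.0 ± 6.39 (SD, n = 6), at ZT5 and its lowest, 71.7 ± 13.7 (SD, n = 5), at ZT17. Both passed edgeR's test of a change over the 6 time points (adjusted p = 0.0186 and 0.0109), and were 2 of the 7 members to do so, where 9.06% of all genes passed. Pigment epithelium markers also changed over the day, and their part in this was not tested. The call for *Txnip* was lost without control ZT9 replicate 5 (adjusted p = 0.0510) or ZT21 replicate 3 (0.0782), and that for *Arrdc4* without ZT17 replicate 4 (0.0532).

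In diabetic retinas no member passed edgeR's test of a change over the day, where 10.2% of all genes passed, and DESeq2's likelihood ratio test gave none either. At an unadjusted p under 0.05 edgeR gave both α-arrestins, *Txnip* (adjusted p = 0.175) and *Arrdc4* (adjusted p = 0.126), 2 of 7 members, where 22.3% of all genes were under it. Diabetic *Txnip* had its highest mean, 147.8 ± 14.3 (SD, n = 5), at ZT9 and its lowest, 107.8 ± 19.95 (SD, n = 5), at ZT5. Diabetic *Arrdc4* had 96.6 ± 8.24 (SD, n = 5) at ZT9 and 73.4 ± 10.8 (SD, n = 4) at ZT17, so ZT17 was the lowest time point in both genotypes.

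The rhythm test, an empirical permutation test of shuffled series, asks for a 24 h pattern at an unadjusted p under 0.05 and a highest library more than 25% above the lowest. By this permutation test *Txnip* (p = 0.00191) and *Arrdc4* (p = 0.000837) were rhythmic in control retinas, 2 of 7 members, where 21.8% of genes were. Fitted cosines peaked at ZT8.62 for *Txnip*, with an amplitude of 18.3% of the mean level, and at ZT3.73 for *Arrdc4*, with 14.95%. In diabetic retinas *Arrdc4* was rhythmic by the permutation test (p = 0.00806, adjusted p = 0.0656, peak at ZT6.58, amplitude 10.7%), 1 of 7 members, where 23.9% of genes were. That call was lost without ZT17 (permutation p = 0.260) or ZT21 (0.0959). *Txnip* was not called there (permutation p = 0.0749), with a fitted peak at ZT13.9 and an amplitude of 15.2%, although edgeR's cosine test called it (unadjusted p = 0.0207). The permutation test did call diabetic *Txnip* without ZT13 replicate 3 (p = 0.0140) or replicate 4 (p = 0.0360), and without ZT13 (p = 0.0287) or ZT21 (p = 0.0477) as a whole. In control retinas its call was lost without ZT9 (permutation p = 0.158).

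The other 5 members were not called rhythmic in either genotype by the permutation test, whereas edgeR's cosine test also called *Klf11* in control retinas (unadjusted p = 0.0383), and without ZT17 the permutation test called *Mlxip* in diabetic retinas (p = 0.0239). *Klf11* had its highest mean at ZT5 in both, with 127.3 ± 25.4 (SD, n = 6) for controls and 131.8 ± 20.02 (SD, n = 5) for diabetic mice. Its lowest mean was at ZT17 in both (p = 0.195 and 0.187, rhythm test by permutation). *Mlxip* had its highest mean at ZT1 and its lowest at ZT21 in both genotypes (p = 0.643 and 0.172 by the same permutation test). *Mlx* was the flattest, with a fold of 1.10 in control and 1.149 in diabetic retinas between the highest and the lowest time point mean.

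A call in one genotype and not in the other does not show that the rhythms differ, so the difference was tested directly. For *Txnip* the unadjusted p of edgeR's test of genotype by cosine and sine was 0.00775, and after adjustment it did not pass (adjusted p = 1.00). It was the 1 member under an unadjusted p of 0.05, where 3.44% of all genes were, and no gene passed after adjustment in this fit (3 did when low counts were kept, and 1 by least squares, neither with a member among them). With all 6 time points in place of the cosine the unadjusted p was 0.0160. An F test by least squares on counts divided by their genotype's mean gave 0.00914 (adjusted p = 0.493 over genes called rhythmic in either genotype). For *Arrdc4* the unadjusted p was 0.139.

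The genes whose pattern was most like that of *Txnip* over the 12 group means, among 12947 genes with a mean of at least 50 normalized counts, were *Ccdc187* (Pearson r = 0.897), *1700017B05Rik* (0.896), *Kiss1r* (0.885), *Plekha4* (0.878) and *Tepp* (0.877). For *Arrdc4* they were *Fastkd2* (r = 0.933), *Senp5* (0.924) and *Vps36* (0.919), besides 2 gene models without a name. The r of *Txnip* with *Arrdc4* was -0.07 over the 12 group means. Within groups, over the 58 deviations from the group means, the genes most like *Txnip* were *Carhsp1* (r = 0.581), *Hist1h4f* (0.538), whose reads may be shared with other histone genes, *Supt4a* (0.536), *Axl* (0.535) and *Ykt6* (0.523), and its r with *Arrdc4* was 0.13. Among those most like *Arrdc4* were *Nom1* (r = 0.514), *Dnah7c* (0.472), *Cpeb1* (0.460) and *Dusp12* (0.459). These values describe shared libraries, depth and scaling as well as shared patterns, and carry no test.

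Other genes that ChREBP or MondoA are known to induce gave no call between genotypes. Of 21 listed, 17 were expressed, and none passed in either direction by edgeR or by DESeq2. At an unadjusted p under 0.05 each tool gave 1, where edgeR gave 15.5% of all genes, and in edgeR it was *Pnpla3*, an acylglycerol lipase of lipid droplets (log2 difference 0.11 ± 0.05 SE). The median log2 difference of the list was -0.01, against 0.00 over all genes, and 6 of 17 were above 0. *Fasn*, fatty acid synthase, had 4081 ± 410 in control and 4044 ± 413 in diabetic retinas (SD, n = 30 and 28; adjusted p = 0.925). *Hk2*, *Pnpla3* and *Acly*, which makes acetyl-CoA from citrate, changed over the day in both genotypes, and *Scd1*, a fatty acid desaturase, in diabetic retinas. These were 3 of 17 in control and 4 of 17 in diabetic retinas, where 9.06% and 10.2% of all genes changed.

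The other α-arrestins went apart. *Arrdc1* was higher in diabetic retinas, with means of 85.4 and 105.3 normalized counts (log2 difference 0.30 ± 0.06 SE, adjusted p = 0.000681). *Arrdc3*, an adaptor for the ubiquitination of membrane receptors, was lower, with 1355 and 1115 (log2 difference -0.28 ± 0.07 SE, adjusted p = 0.0221). *Arrdc2* did not pass (adjusted p = 0.900), and *Arrdc5* was not expressed. With *Txnip* and *Arrdc4*, the family of 5 expressed members thus had 2 higher (1.58% of all genes), 1 lower (1.41%) and 2 that did not pass.

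Of the thioredoxin system and the proteins TXNIP acts on, 12 of 15 were expressed and none passed between genotypes by edgeR or DESeq2, with 1 at an unadjusted p under 0.05 in each, where 15.5% of all genes were in edgeR (there *Prkaa2*, a catalytic subunit of AMP-activated kinase, log2 difference 0.09). *Txn1*, thioredoxin, had 260.5 and 264.3 normalized counts, and *Ddit4*, a stress-induced inhibitor of the mTOR pathway whose product binds TXNIP, had 1617 and 1611. Of the 12, 2 changed over the day in control and 1 in diabetic retinas, where 9.06% and 10.2% of all genes did. *Ddit4* changed over the day in control retinas (adjusted p = 0.0182, highest at ZT17). *Slc2a1*, the transporter GLUT1 that TXNIP removes from the surface, had 2944 and 3063 (log2 difference 0.06 ± 0.06 SE, adjusted p = 0.747). *Slc2a1* changed over the day in both genotypes (adjusted p = 1.149e-05 in control and 0.00375 in diabetic retinas), highest at ZT17 with 3672 ± 396.5 (SD, n = 5) for controls and 3671 ± 316.2 (SD, n = 4) for diabetic mice, and lowest at ZT5 with 2350 and 2616.

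The genes that carry glucose in and set the glucose 6-phosphate pool gave 0 of 13 between genotypes by edgeR and DESeq2, with 1 at an unadjusted p under 0.05 in each (15.5% of all genes in edgeR). Over the day 5 of 13 changed in control and 4 of 13 in diabetic retinas, where 9.06% and 10.2% of all genes did. *Hk2*, a hexokinase, had the smallest p in both genotypes. It had 15640 normalized counts at ZT17 and 7605 at ZT5 in control retinas, a fold of 2.06, and 13900 and 6507 in diabetic retinas, a fold of 2.14 (adjusted p = 7.622e-13 and 5.991e-13). *Hkdc1*, a further hexokinase family member, was highest at ZT1 in both genotypes, and *Gpi1*, which isomerizes glucose 6-phosphate, was highest at ZT17. *Hk1* had the largest mean, 12220, and passed neither test.

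In the MAX network, whose proteins share the helix-loop-helix zipper of MLX, 1 of 9 expressed genes was higher in diabetic retinas, where 1.58% of all genes were. It was *Mycl*, with 36.5 and 46.2 normalized counts (log2 difference 0.34 ± 0.08 SE, adjusted p = 0.00854). *Mxi1* and *Mxd4*, both repressors of MYC targets, changed over the day in both genotypes and did not differ past the threshold between them. They were 2 of 9 in each genotype, where 9.06% of all genes changed in control and 10.2% in diabetic retinas.

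Of the other Krüppel-like factors 11 of 15 were expressed and none passed between genotypes by either tool, with 2 in edgeR and 3 in DESeq2 at an unadjusted p under 0.05 (15.5% of all genes in edgeR). *Klf9* and *Klf4* changed over the day in both genotypes, *Klf2* in control and *Klf13* in diabetic retinas. That made 3 of 11 in each genotype, where 9.06% of all genes changed in control and 10.2% in diabetic retinas. *Klf9*, which glucocorticoids induce, was highest at ZT17 in both, with 2054 ± 123.9 (SD, n = 5) for controls and 2202 ± 82.6 (SD, n = 4) for diabetic mice.

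Of 9 glucocorticoid-responsive genes, listed because glucocorticoids also induce *Txnip*, 1 was higher in diabetic retinas (1.58% of all genes). The median log2 difference of this list was 0.17, against 0.00 over all genes, and 6 of 9 were above 0. *Fkbp5*, a co-chaperone of the glucocorticoid receptor, had 345.9 and 406.0 normalized counts (log2 difference 0.23 ± 0.05 SE, adjusted p = 0.0056). It changed over the day in diabetic retinas (adjusted p = 0.00193), where it was highest at ZT17 with 481.4 ± 92.3 (SD, n = 4), and did not pass in control retinas (adjusted p = 0.717), which had 369.5 ± 40.3 (SD, n = 5) at that time, and no gene passed edgeR's test of a difference in rhythm. *Sgk1*, *Zbtb16*, *Sult1a1* and *Mt2* changed over the day in both genotypes, and *Mt1* in diabetic retinas. With *Fkbp5*, 4 of 9 changed in control and 6 of 9 in diabetic retinas, where 9.06% and 10.2% of all genes did. *Nr3c1*, the receptor, had 1635 and 1539 (log2 difference -0.09 ± 0.03 SE, adjusted p = 0.0803).

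**Figure D4:**
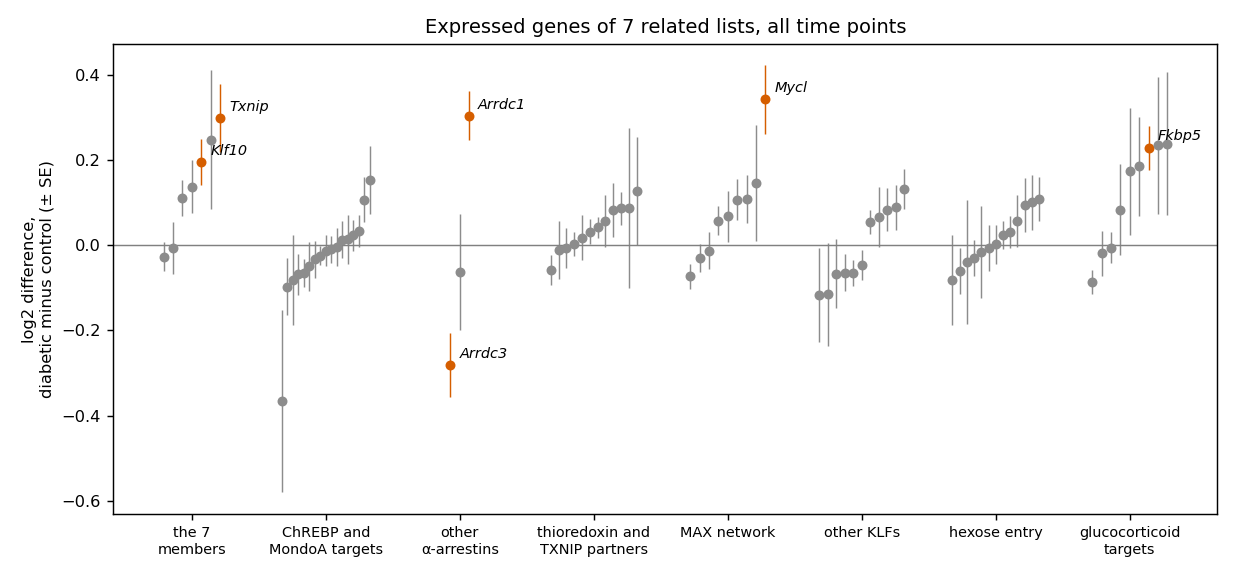
Log2 difference over all time points, diabetic minus control, with its SE (y), of the 7 members and of the expressed genes of 7 related lists (x), in orange with a name where the adjusted p is under 0.05. Beside *Txnip* (0.30) and *Klf10* (0.20), *Arrdc1* (0.30), *Mycl* (0.34) and *Fkbp5* (0.23) lie above 0 and *Arrdc3* (-0.28) below it, and none of the 17 other ChREBP or MondoA targets is marked.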

How the data were processed

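RNA of single retinas was sequenced, and per the labels and the paper's methods the authors aligned the reads with STAR 2.7.4a to GRCm38.p5 with Gencode M15 and counted reads per gene with HTSeq 0.11.1. The deposited counts are raw whole numbers, and the strand setting of counting is not given in the sources used here. Depth was 7773117 to 22147398 reads, so a gene near 4 normalized counts has a large counting error.

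Samples were grouped by the genotype and time in their labels. Expressed genes had a median above 4 counts after division by DESeq2 1.42.0 size factors, and the values printed are on this scale. Genotype and time were tested on the counts with edgeR 4.0.16 (quasi-likelihood, TMM factors, R 4.3.3), over all time points with 2 groups, at each time point and over the day within 1 fit of 12 groups, and for rhythm differences with genotype by cosine and sine. Adjusted p-values of the main fits are Benjamini-Hochberg over 19120 genes, with a threshold of 0.05. In the fits without a filter they are over all genes with a read, and for least squares over genes called rhythmic in either genotype. Rhythm was tested with a re-implemented empirical JTK_CYCLE (period 24 h, 6 phases, 5 widths, 1000000 shuffled series). Differential rhythm used the models above in place of the authors' package. Levels per kb divide by the exonic length in Gencode M21. Methods were tested on simulated data with changes larger than those called for the members. How often changes of that smaller size are found was not tested.

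The members, gene lists and markers were chosen with earlier results of these data known. Named genes are the 7 members, the 5 genes most like *Txnip* and *Arrdc4* by each measure, and from each list the 2 with the largest mean and up to 4 that passed a test. The value of 1 of these genes is not reported here. *Arrdc2*, *Txn1*, *Prkaa2* and *Mt2* were named after their values were seen, as were the markers that passed. Alternatives were other scaling, no filter on low counts, DESeq2, time as a term, a replicate block, other rhythm tests and each library or time point left out. The fits without 3 libraries and the ratio of *Txnip* to *Arrdc4* were added after seeing the data. No 2 libraries of a group agreed within sampling noise (smallest chi-square per degree of freedom 1.82 over 113 pairs).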

Additional observations from a re-analysis of the deposited data

Results flagged for a closer look

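Of the 84 groups of 1 member at 1 time in 1 genotype, 6 held a library far from its others, by the ratio of its gap to the whole range of the group. Chance flags about 1 in 20 groups. *Txnip* in control ZT17 replicate 3 had 87.6 normalized counts, the lowest of 5, with the next at 106.3. *Klf10* in diabetic ZT1 replicate 5 had 187.3, with the next at 140.4. *Klf11* in control ZT17 replicate 5, a library with lens transcripts, had 119.3, with the next at 92.4. At ZT5 in diabetic retinas *Mlxipl* had 12.2 in replicate 4, *Mlxip* had 419.0 in replicate 5 and *Mlx* had 204.8, the lowest, in replicate 3.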

How the results depend on the processing

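Over all time points 2 members passed, *Txnip* and *Klf10*, and 1 when low counts were kept. *Txnip* passed under every alternative run, with adjusted p-values of 0.0049 (time as a term) to 0.0399 (no filter). With each library left out, the count was 1 to 2 over all time points, 1 to 2 for the change over the day in control retinas, 1 to 2 for rhythm in diabetic retinas, 2 to 2 for rhythm in control retinas, and 0 to 0 at each time point, over the day in diabetic retinas and for the difference in rhythm. Rhythm in control retinas gave 1 member without ZT9 and 3 with edgeR's cosine test, which added *Klf11*. Rhythm in diabetic retinas gave 1 without ZT17, which was *Mlxip* in place of *Arrdc4*, 1 without ZT21, which was *Txnip* in place of *Arrdc4*, 0 after adjustment, 2 without ZT13 and 2 with edgeR's cosine test, which added *Txnip*. At single times the sign of the log2 difference was followed for *Txnip*, *Arrdc4* and *Klf10*, and at ZT1 for *Mlxipl*. It changed for *Arrdc4* over all time points (-0.0281 to 0.0124 with each library left out), at ZT9 (-0.0418 to 0.122) and at ZT17 (-0.0540 to 0.129). It also changed for *Txnip* at ZT5 (-0.151 to 0.0417) and for *Klf10* at ZT5 (-0.0168 to 0.130). The causes were not tested.

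The labels do not say that a replicate number marks shared mice, litters or days. Of 26 same-numbered pairs 19 had a correlation of deviations above 0.1 (range -0.443 to 0.807, median 0.261). As not all did, the main fits did not take the numbers to pair the retinas. Differently numbered pairs were not compared, so a factor shared by same-numbered retinas was not tested. A replicate block left the count at 2 over all time points (*Txnip* adjusted p = 0.0376, *Klf10* 0.0465), 0 at each time point, 0 for the difference in rhythm, and 2 and 0 for the change over the day. *Klf10* at ZT1 then had an unadjusted p of 0.0593. The rhythm test by permutation was not run with the block.

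Groups of 4 to 6 retinas limit every single time point, and the depth limits *Mlxipl*. Without 3 control libraries the counts of members that passed did not change.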
